A study of Homo sapiens with 6 samples.

Results

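The genes of the desmosome and the gene of the plakin periplakin were followed in T24 cells, an established human bladder cancer line, after knockdown of UBC9. They are 10 genes chosen by symbol, namely DSG2, DSG3, DSC2, DSC3, JUP, PKP1, PKP2, PKP3, DSP and PPL, and all 10 were found among the 58174 genes measured. T24 cells carried either a scrambled control shRNA (shRNA-NC, 3 libraries) or an shRNA against UBC9 (shRNA-UBC9, 3 libraries), delivered by lentivirus and kept under puromycin. The study's methods give 1 hairpin for UBC9, so an effect of that hairpin on other transcripts cannot be told apart from the loss of UBC9, and the labels do not say whether the 3 libraries of a group came from separate cultures. The p-values therefore measure the spread between these libraries, which may be technical.

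Desmosomes are spot junctions that tie the keratin filaments of neighbouring epithelial cells together. Desmogleins (DSG) and desmocollins (DSC) are cadherins that span the membrane and bind across the gap, plakoglobin (JUP) and plakophilins (PKP) sit on their tails, and desmoplakin (DSP) links this plaque to keratin. Periplakin (PPL) is a plakin like desmoplakin and is known from the cornified envelope of stratified epithelia, where it pairs with envoplakin. In the urothelium, as in other epithelia, desmosomes carry mechanical load between cells.

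Polyadenylated RNA was sequenced and given as RPKM, the reads of a gene scaled to its length and to the mapped reads of the library. This puts genes and libraries on a common scale but does not adjust for other differences between libraries. Median scaling and quantile normalization were therefore among the alternatives. The steps of the low values gave back whole reads, with totals of about 28220000 to 36060000 per library and overlapping ranges between the groups. Of the 12428 genes with at least 0.5 RPKM in at least 3 of the 6 libraries, 981 were DEGs, that is, genes with a log2 fold change beyond 1 in either direction and an adjusted p below 0.05 in limma. All log2 fold changes are shRNA-UBC9 minus shRNA-NC of log2(RPKM + 0.1), a scale that shrinks the change of genes near 0, and all means are given ± SD with n = 3.

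Of the 10 genes, DSP was up-regulated, PKP2 and PPL were down-regulated, and 4 others were tested and were not DEGs. DSC2, DSG3 and PKP1 were below the expression filter. The share of all tested genes that were DEGs was 5.20% in the higher and 2.70% in the lower direction, against 1 and 2 of the 7 tested here. Without a minimum fold change, DSP and PKP3 were higher and DSC3, PKP2 and PPL were lower at an adjusted p below 0.05 in limma, against 18.8% and 18.0% of all tested genes. The same 5 genes had groups that did not overlap, against 25.7% of all tested genes with every shRNA-UBC9 library higher and 25.4% with every one lower. The median log2 fold change was -0.21 over these 7 genes and 0.00 over all tested genes. PPL passed the filter only through its shRNA-NC libraries, so these counts are a description and not support for a change of the group of genes.

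**Figure D1:**
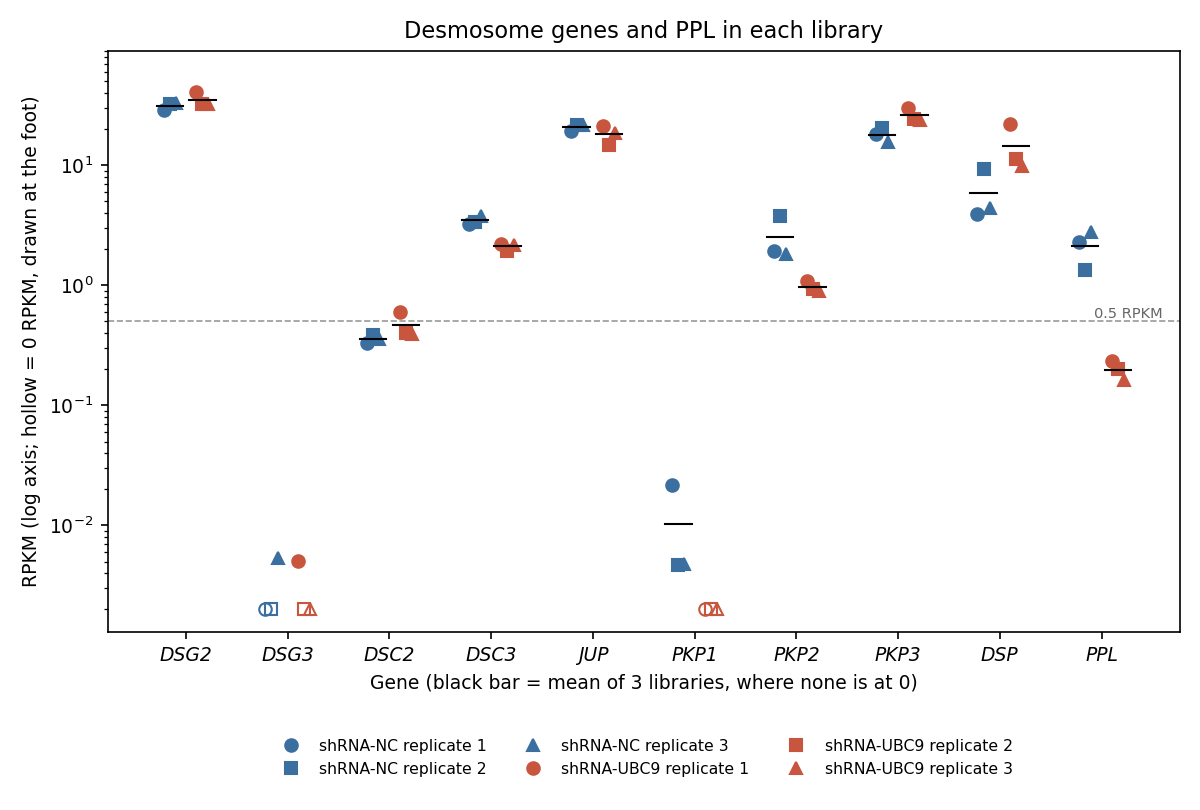
RPKM (log axis) of the 10 genes in each of the 6 libraries, with shRNA-NC in blue, shRNA-UBC9 in red and black bars for the mean of 3 libraries. The shRNA-UBC9 libraries of PPL lie at 0.161 to 0.235 RPKM and those of shRNA-NC at 1.33 to 2.78 RPKM, while DSG2 and JUP overlap between the groups. Hollow symbols are libraries at 0 RPKM.

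The desmosomal cadherins lie side by side on chromosome 18 in GRCh38 (positions from GENCODE release 44). DSC3 (chr18:30989365-31042815) and DSC2 (chr18:31058840-31102522) are on the minus strand, and DSG3 (chr18:31447741-31478702) and DSG2 (chr18:31498177-31549008) on the plus strand. Members of this cluster were at very different levels and did not move as a block.

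DSG2, the desmoglein that simple epithelia use, was the highest of the 10 genes in both groups. It was at 28.6, 32.7 and 32.8 RPKM in shRNA-NC and at 40.6, 32.2 and 32.6 RPKM in shRNA-UBC9. The groups overlapped, since only shRNA-UBC9 replicate 1 exceeded every shRNA-NC library. The means were 31.4 ± 2.37 and 35.1 ± 4.72 RPKM, and the log2 fold change of 0.16 (SE 0.11, 95% interval -0.10 to 0.42) did not pass the test (limma, adjusted p = 0.309). The interval leaves out a change of 2-fold in either direction.

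DSC3, a desmocollin of stratified epithelia, was lower after knockdown. Its values were 3.26, 3.36 and 3.79 RPKM in shRNA-NC and 2.22, 1.95 and 2.16 RPKM in shRNA-UBC9, with a gap between the groups. The mean went from 3.47 ± 0.284 to 2.11 ± 0.144 RPKM, a log2 fold change of -0.69 (SE 0.11, 95% interval -0.94 to -0.44, limma, adjusted p = 0.00219). DSC3 passed the p threshold but not the fold threshold of a DEG, and it did so under all 15 alternative settings, with log2 fold changes of -0.74 to -0.52.

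DSC2, the desmocollin with the widest distribution in epithelia, was barely expressed and was not tested. It was at 0.333, 0.385 and 0.361 RPKM in shRNA-NC and at 0.601, 0.401 and 0.395 RPKM in shRNA-UBC9. Every shRNA-UBC9 library was above every shRNA-NC library, but those of replicates 2 and 3 lay only just above the highest control. These levels rest on 138 to 268 reads per shRNA-UBC9 library and 123 to 165 reads per shRNA-NC library. With the filter removed, the log2 fold change was 0.28 (95% interval -0.23 to 0.80, limma, adjusted p = 0.458).

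DSG3, a desmoglein of stratified squamous epithelia, was close to the limit of detection. It had 1 read in shRNA-NC replicate 3, 1 read in shRNA-UBC9 replicate 1 and 0 reads in the other 4 libraries. A count of 0 reads allows up to 3 reads, or 0.0154 to 0.0192 RPKM in those libraries, from counting error only. No difference in DSG3 was detectable at this depth.

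JUP (chr17:41754604-41786931, minus strand), the plaque protein shared by desmosomes and adherens junctions, was the second most abundant of the 10 in shRNA-NC. It was at 19.4, 21.5 and 21.7 RPKM in shRNA-NC and at 21.1, 14.8 and 18.7 RPKM in shRNA-UBC9. The shRNA-UBC9 libraries were spread on either side of the lowest control. The means were 20.9 ± 1.26 and 18.2 ± 3.18 RPKM, and the log2 fold change of -0.21 (SE 0.13, 95% interval -0.51 to 0.09) did not pass the test (limma, adjusted p = 0.248).

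Of the 3 plakophilins, which bind the cadherin tails and desmoplakin, PKP3 was higher, PKP2 was lower and PKP1 was not tested. PKP3 (chr11:392614-404908, plus strand), found in most desmosomes, was at 18.1, 20.3 and 15.5 RPKM in shRNA-NC and at 29.9, 24.4 and 23.7 RPKM in shRNA-UBC9. The groups did not overlap. Its mean went from 18.0 ± 2.39 to 26.0 ± 3.41 RPKM, a log2 fold change of 0.53 (SE 0.13, 95% interval 0.24 to 0.83, limma, adjusted p = 0.0141), which is below the fold threshold of a DEG. Without shRNA-NC replicate 3, its lowest control, the adjusted p in limma was 0.0559.

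PKP2 (chr12:32790745-32896798, minus strand), the plakophilin of simple epithelia and heart muscle, was down-regulated. It was at 1.95, 3.77 and 1.82 RPKM in shRNA-NC and at 1.09, 0.931 and 0.891 RPKM in shRNA-UBC9. All 3 shRNA-UBC9 libraries were below every control, and shRNA-NC replicate 2 stood well above the other 2 controls. The mean fell from 2.51 ± 1.09 to 0.972 ± 0.108 RPKM, a log2 fold change of -1.21 (SE 0.26, 95% interval -1.80 to -0.62, limma, adjusted p = 0.00778). Without shRNA-NC replicate 2 the log2 fold change was -0.89 (limma, adjusted p = 0.0066), so PKP2 was then no longer a DEG by its fold. With a pseudocount of 1 RPKM it was -0.79 (limma, adjusted p = 0.0121).

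PKP1 (chr1:201283452-201332993, plus strand), the plakophilin of stratified epithelia, had 4, 1 and 1 reads in the shRNA-NC libraries, or 0.0216, 0.00465 and 0.00476 RPKM. It had 0 reads in all 3 shRNA-UBC9 libraries, which allows up to 0.0134, 0.0137 and 0.0171 RPKM. Only shRNA-NC replicate 1 was above 3 reads, so no fold change is given.

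DSP (chr6:7541338-7586714, plus strand), the plakin that joins the plaque to keratin filaments, was up-regulated. It was at 3.95, 9.36 and 4.44 RPKM in shRNA-NC and at 22.0, 11.3 and 9.92 RPKM in shRNA-UBC9. The groups did not overlap, but the highest control, replicate 2, lay just below the lowest shRNA-UBC9 library, and shRNA-UBC9 replicate 1 stood far above the rest. The mean rose 2.43-fold, from 5.92 ± 2.99 to 14.4 ± 6.63 RPKM, with a log2 fold change of 1.29 (SE 0.37, 95% interval 0.44 to 2.14, limma, adjusted p = 0.0274).

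The call for DSP depended on single libraries. Leaving out shRNA-UBC9 replicate 1 gave a log2 fold change of 0.94 (limma, adjusted p = 0.0557), without shRNA-NC replicate 1 it was 1.05 (adjusted p = 0.0968) and without shRNA-NC replicate 3 it was 1.14 (adjusted p = 0.0923). Without shRNA-NC replicate 2 it was 1.67 (limma, adjusted p = 0.00907). When every gene above 0 was tested, the estimate was the same and the adjusted p in limma was 0.0770. The direction was higher in all 15 alternatives, and DSP was a DEG in 11 of them.

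PPL (chr16:4882507-4960741, minus strand), the gene of periplakin, had the largest fold change of the 7 tested genes. It was at 2.31, 1.33 and 2.78 RPKM in shRNA-NC and at 0.235, 0.199 and 0.161 RPKM in shRNA-UBC9. The lowest control was well above the highest shRNA-UBC9 library. The mean fell 10.8-fold, from 2.14 ± 0.739 to 0.198 ± 0.0366 RPKM, with a log2 fold change of -2.85 (SE 0.27, 95% interval -3.48 to -2.23, limma, adjusted p = 0.000251).

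The shRNA-NC libraries held 529, 354 and 723 reads of PPL and the shRNA-UBC9 libraries 65, 54 and 35. The smallest of these, 35 reads, has a Poisson 95% interval of 24.4 to 48.7 reads, which covers counting error only. PPL was a DEG in all 14 alternatives in which it could be tested, with log2 fold changes from -3.35 to -1.36. The smallest of these came from a pseudocount of 1 RPKM, which is above every shRNA-UBC9 value of PPL.

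**Figure D2:**
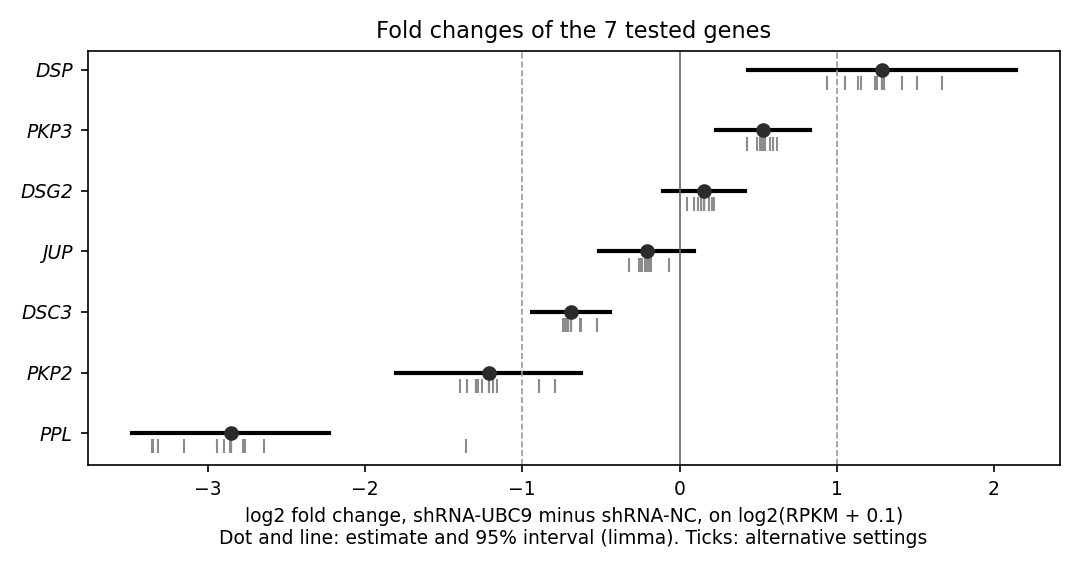
Log2 fold change of the 7 tested genes with its 95% interval from limma, and below each the values under the alternative settings as grey ticks. Dashed lines mark a log2 fold change of 1 in either direction. PPL at -2.85, PKP2 at -1.21 and DSP at 1.29 lie beyond them, and the intervals of DSG2 and JUP include 0.

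Since every library measures all 10 genes, ratios within a library do not depend on its total. They were chosen after the values had been seen and are given without a test (the smallest p that an exact permutation test of 3 against 3 libraries can give is 0.1). The ratio of PKP3 to PKP2 was 9.30, 5.38 and 8.53 in shRNA-NC and 27.3, 26.3 and 26.6 in shRNA-UBC9. The shRNA-UBC9 libraries were close together and far above the controls. PKP3 made up 84.3% to 90.2% of the summed plakophilin RPKM in shRNA-NC and 96.3% to 96.5% in shRNA-UBC9.

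The ratio of DSP to PPL was 1.71, 7.04 and 1.60 in shRNA-NC and 93.9, 56.6 and 61.4 in shRNA-UBC9, which brings together the rise of one plakin and the fall of the other. PPL was 36.9%, 12.4% and 38.5% of the sum of both in shRNA-NC and 1.05%, 1.74% and 1.60% in shRNA-UBC9. In shRNA-NC replicate 2 the ratio was several times that of the other controls, because DSP was highest and PPL lowest in that library.

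Among the cadherins, the ratio of DSG2 to DSC3 was 8.77, 9.73 and 8.63 in shRNA-NC and 18.2, 16.5 and 15.1 in shRNA-UBC9. DSG2 made up 88.7% to 89.7% of the summed RPKM of the 4 cadherins in shRNA-NC and 92.7% to 93.5% in shRNA-UBC9. The ratio of DSG2 to JUP was 1.48, 1.52 and 1.51 in shRNA-NC and 1.92, 2.18 and 1.74 in shRNA-UBC9. The groups thus did not overlap in the DSG2 to JUP ratio, although those of either gene alone did.

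The summed RPKM of the 10 genes was 78.0, 92.7 and 83.1 in shRNA-NC and 117.7, 86.2 and 88.5 in shRNA-UBC9. The groups overlapped, so the total of desmosome and periplakin transcripts was not separated between them although its makeup was.

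**Figure D3:**
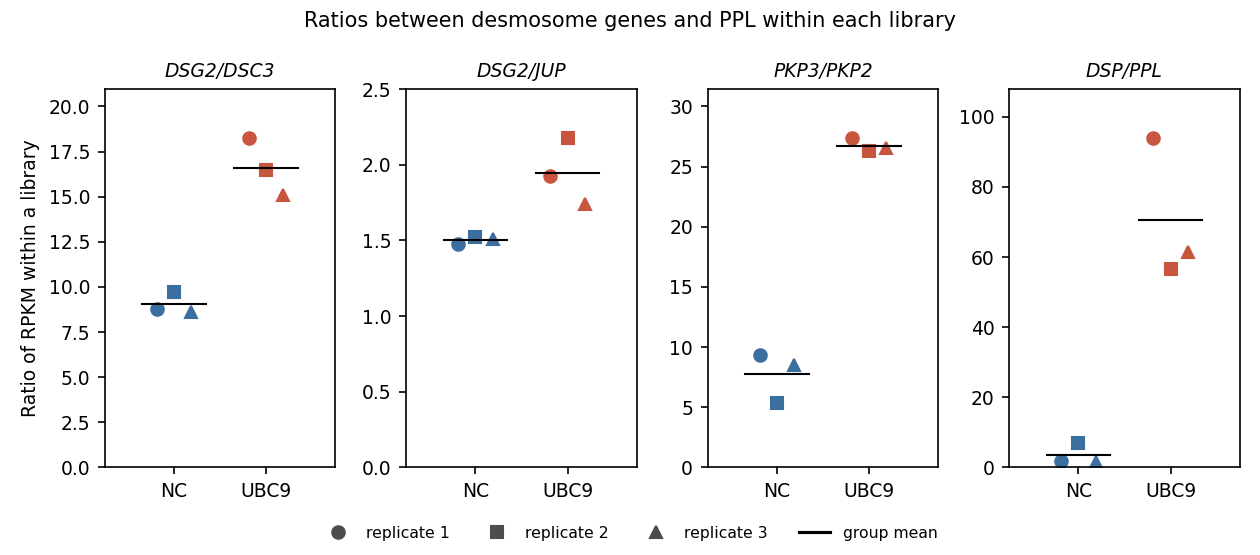
Ratios of RPKM within each library for DSG2 to DSC3, DSG2 to JUP, PKP3 to PKP2 and DSP to PPL, with 3 shRNA-NC libraries in blue, 3 shRNA-UBC9 libraries in red and group means as black bars. Each axis starts at 0. In all 4 ratios every shRNA-UBC9 library lies above every shRNA-NC library, and for PKP3 to PKP2 the shRNA-UBC9 values lie between 26.3 and 27.3.

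By mean RPKM, the order in shRNA-NC was DSG2, JUP, PKP3, DSP, DSC3, PKP2, PPL, DSC2, PKP1 and DSG3. The ranges of JUP and PKP3 overlapped, as did those of DSC3 and PKP2, of PKP2 and PPL, and of PKP1 and DSG3. In shRNA-UBC9 the order was DSG2, PKP3, JUP, DSP, DSC3, PKP2, DSC2, PPL, DSG3 and PKP1, where the ranges of JUP and DSP overlapped and those of DSG3 and PKP1 as well. DSP thus reached the range of JUP, and PPL went from above DSC2 to below it.

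The libraries of a group were not alike for these genes. Of the 8 genes above 0.1 RPKM in any library, all 8 were highest in shRNA-UBC9 replicate 1 among the shRNA-UBC9 libraries, compared with 36.4% of all tested genes. In shRNA-NC, replicate 2 was highest for 4 of the 8, DSP and PKP2 among them, compared with 41.2% of all tested genes, and lowest for PPL. Whether these differences between libraries share a source with the group differences was not tested.

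**Figure D4:**
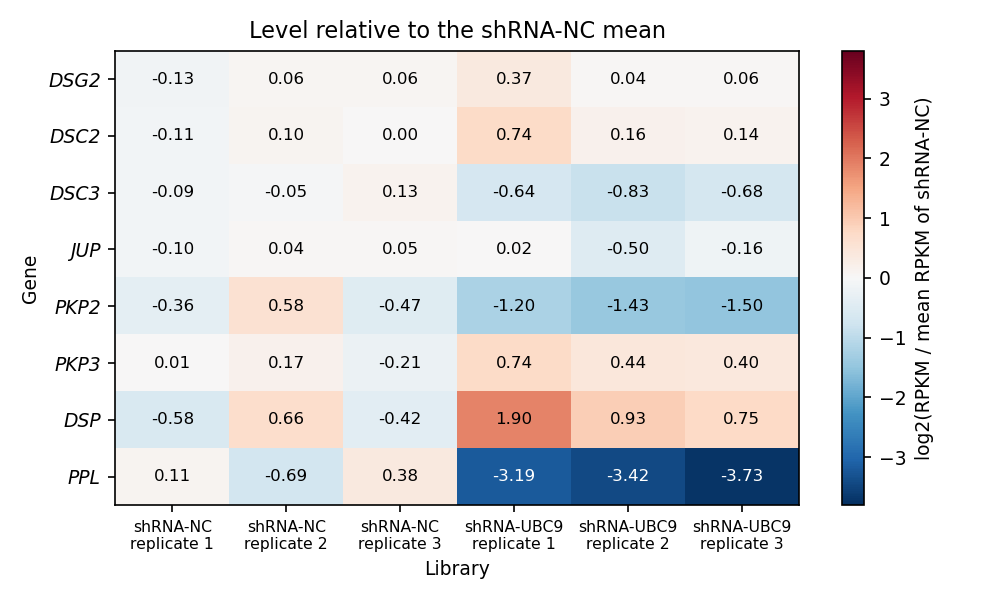
Log2 ratio of each library's RPKM to the mean RPKM of shRNA-NC for the 8 genes above 0.1 RPKM in any library, with genes in rows, libraries in columns, red for higher and blue for lower. The shRNA-UBC9 libraries of PPL are at -3.19, -3.42 and -3.73. For DSP, shRNA-UBC9 replicate 1 is at 1.90 and shRNA-NC replicate 2 at 0.66, close to the 0.75 of shRNA-UBC9 replicate 3.

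Over the 6 libraries, the 5 tested genes whose log2(RPKM + 0.1) was most like that of PPL by Pearson's r were SPATS2 (r = 0.997), DOCK9 (r = 0.997), RP11-169K16.4 (r = 0.996), AC024560.3 (r = 0.995) and DCTN2 (r = 0.995). The points share the group difference, so each r mostly restates that these genes were lower in shRNA-UBC9. DOCK9 was at 7.84, 6.95 and 8.45 RPKM in shRNA-NC and at 4.05, 3.64 and 3.69 RPKM in shRNA-UBC9, with the lowest control in replicate 2 as for PPL.

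Other genes of the desmosome and of the cornified envelope were mostly silent. This list and those below were chosen with earlier results of these data known. Their counts are therefore a description and not support for a change of a list. Of 22 listed genes, 13 were at 0 RPKM in every library, among them DSC1, DSG1, DSG4, IVL (involucrin) and LOR (loricrin), and only 3 could be tested. None of the 3 was a DEG in limma, by the adjusted p or by an unadjusted p below 0.05, or in limma-voom on the recovered reads, and their median log2 fold change was 0.01. PERP, a membrane protein of desmosomes, was at 28.7 ± 3.17 RPKM in shRNA-NC and 29.0 ± 3.82 RPKM in shRNA-UBC9.

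EVPL, the gene of envoplakin, the partner of periplakin, was at 7.17, 5.15 and 6.26 RPKM in shRNA-NC and at 5.42, 7.0 and 7.64 RPKM in shRNA-UBC9. The groups overlapped, and the log2 fold change of 0.11 (SE 0.16) did not pass the test (limma, adjusted p = 0.624). The ratio of PPL to EVPL was 0.322, 0.258 and 0.444 in shRNA-NC and 0.0432, 0.0285 and 0.0211 in shRNA-UBC9. PKP4, a relative of the plakophilins named here after its values were seen, was lower, at 6.68 ± 0.529 and 4.61 ± 0.316 RPKM (log2 fold change -0.52, limma, adjusted p = 0.00467).

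Desmosomes hold keratin filaments, and 3 of the 9 tested genes of the keratin and vimentin list were DEGs in the lower direction and 1 in the higher, with a median log2 fold change of -0.93. Without a minimum fold change, 6 were lower and 1 higher at an adjusted p below 0.05 in limma. Over all tested genes, 2.70% were DEGs in the lower and 5.20% in the higher direction, and 18.0% and 18.8% passed without a minimum fold change. KRT7, a keratin of simple and transitional epithelia, fell from 556 ± 62.3 to 258 ± 37.6 RPKM (log2 fold change -1.11, limma, adjusted p = 0.000578). KRT80 fell from 16.3 ± 2.67 to 4.51 ± 1.30 RPKM (log2 fold change -1.86, limma, adjusted p = 0.000563). KRT17 fell from 1.91 ± 1.09 to 0.570 ± 0.176 RPKM (log2 fold change -1.47, limma, adjusted p = 0.0172). Its shRNA-UBC9 libraries were at 0.492, 0.772 and 0.447 RPKM. KRT17 thus passed the filter of 0.5 RPKM only with its shRNA-NC libraries, the group in which it was higher. KRT7 was at a log2 fold change of -0.98 when shRNA-UBC9 replicate 1 was left out, and KRT17 at an adjusted p of 0.0504 in limma when shRNA-NC replicate 3 was left out, so that each was then no DEG.

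KRT15 went the other way, from 0.314 ± 0.0794 to 1.40 ± 0.376 RPKM (log2 fold change 1.84, limma, adjusted p = 0.000996), and with a pseudocount of 1 RPKM its log2 fold change was 0.86. All its shRNA-NC libraries were below 0.5 RPKM, so it passed the filter only through shRNA-UBC9, the group in which it was higher. VIM, the gene of the filament vimentin, was at 468 ± 45.1 and 366 ± 96.8 RPKM and did not pass the test (log2 fold change -0.38, limma, adjusted p = 0.121). When shRNA-UBC9 replicate 1 was left out, VIM was lower, with a log2 fold change of -0.58 (limma, adjusted p = 0.00841). The keratin list as a whole summed with VIM to 1393 to 1621 RPKM in shRNA-NC and 811 to 915 RPKM in shRNA-UBC9. DSP, the link to these filaments, was thus higher in the libraries in which KRT7 was lower.

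Hemidesmosomes anchor keratin to the basement membrane rather than to a neighbouring cell. Of 8 tested genes of this list, 3 were up-regulated and 1 was down-regulated, against 5.20% and 2.70% of all tested genes. As for the other lists, these counts are a description only. The DEGs COL17A1 and ITGB4 passed the filter only with the libraries of the group in which each was higher. The median log2 fold change of the list was -0.02. LAMB3, a chain of laminin-332, rose from 67.5 ± 14.4 to 254 ± 15.3 RPKM (log2 fold change 1.93, limma, adjusted p = 7.00e-05). COL17A1, a membrane collagen of hemidesmosomes, rose from 0.524 ± 0.117 to 2.28 ± 0.0728 RPKM (log2 fold change 1.95, limma, adjusted p = 0.000169). In shRNA-NC replicate 2, COL17A1 was below 0.5 RPKM, so it passed the filter only with its shRNA-UBC9 libraries.

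ITGB4, the integrin chain that marks hemidesmosomes, fell from 1.71, 0.999 and 3.26 RPKM in shRNA-NC to 0.185, 0.189 and 0.204 RPKM in shRNA-UBC9 (log2 fold change -2.69, limma, adjusted p = 0.00112). Its levels were near those of PPL in every library of shRNA-UBC9, and its lowest control was also replicate 2. Like PPL, it passed the filter only through shRNA-NC.

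In the adherens junction list, none of 10 tested genes was a DEG in limma, by the adjusted or the unadjusted p, or in limma-voom on the recovered reads, and the median log2 fold change was -0.15. Without a minimum fold change, 2 were higher and 4 lower at an adjusted p below 0.05 in limma, against 18.8% and 18.0% of all tested genes. CTNNA1 and CTNNB1, the catenins with the highest levels, were at 61.1 ± 5.07 and 54.3 ± 2.18 RPKM and at 59.5 ± 8.44 and 60.0 ± 9.87 RPKM in shRNA-NC and shRNA-UBC9. Neither passed the test (limma, adjusted p = 0.180 and 0.963). CDH1, the gene of E-cadherin, was at 0 RPKM in 5 libraries and at 0.00449 RPKM in shRNA-UBC9 replicate 1.

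In the tight junction list, 2 of 11 tested genes were up-regulated and none was down-regulated, against 5.20% and 2.70% of all tested genes. The median log2 fold change of the list was 0.61. Without a minimum fold change, 6 were higher and 2 lower at an adjusted p below 0.05 in limma, against 18.8% and 18.0% of all tested genes. CLDN1, a claudin, rose from 36.5 ± 13.8 to 74.2 ± 10.2 RPKM (log2 fold change 1.08, limma, adjusted p = 0.0085), with its highest control again in replicate 2. It was below the fold threshold without shRNA-NC replicate 1, without shRNA-NC replicate 3 or without shRNA-UBC9 replicate 1, at 0.86 to 1.0. MARVELD2, the gene of tricellulin, rose from 0.782 ± 0.168 to 1.90 ± 0.170 RPKM (log2 fold change 1.20, limma, adjusted p = 0.00166), and by 0.71 on that scale with a pseudocount of 1 RPKM.

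**Figure D5:**
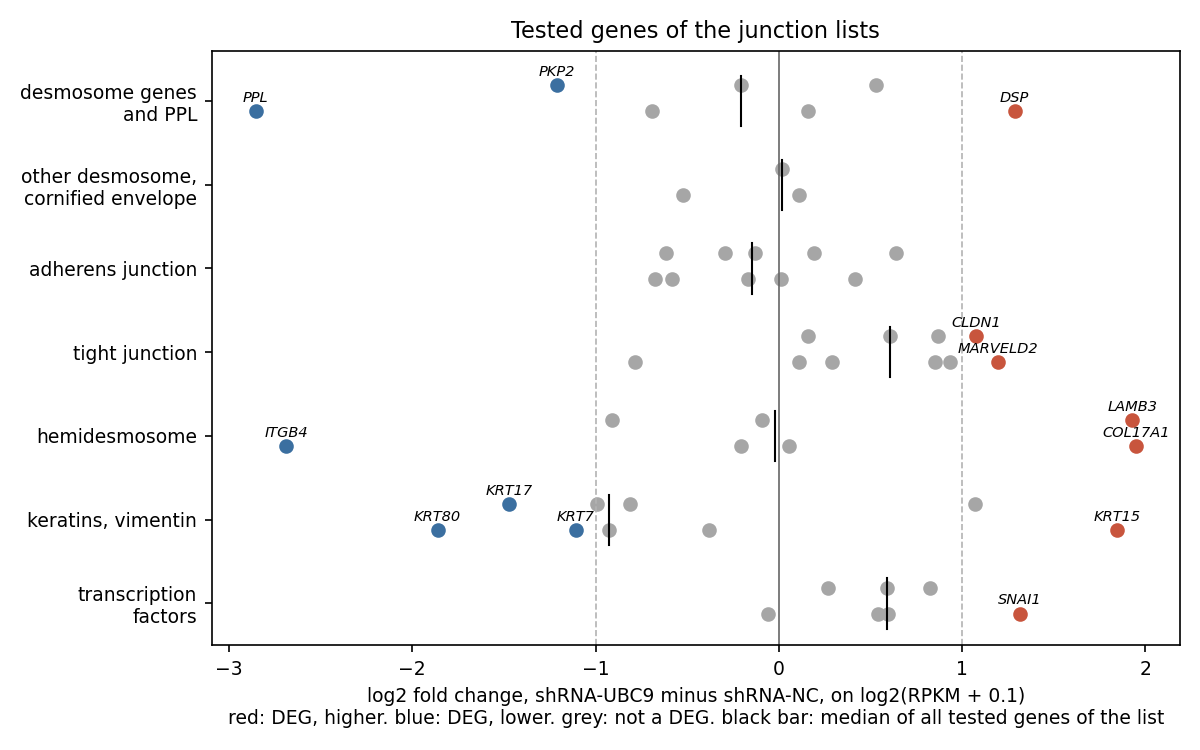
Log2 fold change of tested genes of the desmosome genes with PPL and of 6 related lists, 1 row per list, with DEGs named in red (higher) or blue (lower), other genes in grey and the median over all tested genes of each list as a black bar. All tested genes are drawn except 1 of the tight junction and 1 of the hemidesmosome. The medians run from -0.93 for keratins and vimentin to 0.61 for the tight junction. PPL at -2.85 and ITGB4 at -2.69 are the lowest values shown and COL17A1 at 1.95 the highest.

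Among 7 tested transcription factors of junction genes, 1 was up-regulated and none was down-regulated, against 5.20% and 2.70% of all tested genes. Their median log2 fold change was 0.59. Without a minimum fold change, 5 of the 7 were higher at an adjusted p below 0.05 in limma, against 18.8% of all tested genes. SNAI1, a zinc finger factor known to bind E-box motifs in promoters of junction genes, was at 1.31, 1.10 and 1.89 RPKM in shRNA-NC and at 3.22, 3.60 and 4.10 RPKM in shRNA-UBC9 (log2 fold change 1.31, limma, adjusted p = 0.00154), and with a pseudocount of 1 RPKM its log2 fold change was 0.94. Its relative SNAI2 was also higher, at 8.50 ± 0.731 and 15.1 ± 1.34 RPKM (log2 fold change 0.82, limma, adjusted p = 0.000778), as was KLF5, at 11.9 ± 0.874 and 17.3 ± 1.32 RPKM (log2 fold change 0.54, limma, adjusted p = 0.00374). GRHL2 and OVOL1, factors of epithelial genes, were at 0 RPKM in every library.

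The E-box letters CACCTG and their reverse complement CAGGTG were looked for in the 250 bases before a transcription start given by RefSeq (GRCh38.p14). Some transcripts in GENCODE start further upstream, so parts of these windows lie in annotated exons of the same gene. These parts were all 250 bases for DSP, 233 and 188 for the 2 windows of JUP, and 87 and 0 for those of DSC2. They were 73 bases for DSC3, 54 for PKP1 and 0 for DSG2 and DSG3. There were 9 such windows for 7 of the 10 genes, and those of PKP2, PKP3 and PPL were not analysed here. A window with the motif was found for DSP, DSG2, JUP and DSC2, that is, in 4 of the 9 windows, compared with 17.5% of 35116 windows of all genes. The windows of DSP and DSG2 and 1 of those of JUP held it 2 times, compared with 2.53% of all windows with 2 or more. The windows with the motif were 78% (DSP), 75.2% (DSG2), 66% (JUP) and 59.6% (DSC2) G and C. Those of the 10 genes without it were 42.8% to 67.6%, and the median over all windows was 58%. The shares were not compared at like base composition. The stretches below, 30 bases each and 5′ to 3′ on the strand of the gene, carry the motif matches in capitals. They are shown because DSP was the up-regulated gene and the other 3 held the same letters. Of these, DSG2 and JUP were tested and were not DEGs, and DSC2 was not tested.
DSP, chr6:7541481-7541510, motif 178 bases before the RefSeq start: gggcggcgggcgCAGGTGgggaggggcggc
DSP, chr6:7541574-7541603, motif 85 bases before the RefSeq start: gaagaaaccggcCAGGTGtggcctaggcgc
DSG2, chr18:31497933-31497962, motif 232 bases before the RefSeq start: acgtcacggtccCAGGTGcgagtgcgagcg
DSG2, chr18:31498049-31498078, motif 116 bases before the RefSeq start: tcgcggcggccaCACCTGgagccgcgcctt
JUP, chr17:41786013-41786042, motifs 54 and 43 bases before the RefSeq start: cgactctggcccCACCTGccgagCAGGTGa
DSC2, chr18:31102560-31102589, motif 156 bases before the RefSeq start: tcaactttctgtCAGGTGggcctcaggcag
These matches are letters in a window and not sites of binding, and those of DSP and JUP lie inside the gene as GENCODE draws it. Whether SNAI1 or SNAI2 acts on any of these genes, in either direction, was not tested. DSP, DSG2 and 1 window of JUP held the motif 2 times, and the DEGs PKP2 and PPL were not analysed for it.

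Markers of cell types were read as a check of the labelled line. Of 11 epithelial and urothelial markers, 7 were tested, of which 2 were down-regulated (KRT7 and PPARG) and none up-regulated, against 2.70% and 5.20% of all tested genes. At an adjusted p below 0.05 in limma with no minimum fold, 6 were lower and 0 higher, against 18.0% and 18.8% of all tested genes. GATA3 was among the 6, at 7.66 ± 2.16 RPKM in shRNA-NC and 4.26 ± 0.363 RPKM in shRNA-UBC9 (log2 fold change -0.79, limma, adjusted p = 0.0160). The summed RPKM of the 11 was 961 to 1131 in shRNA-NC and 437 to 572 in shRNA-UBC9. The uroplakins UPK1B, UPK2 and UPK3A, which define differentiated urothelium, were at 0.125 RPKM or less. Of 3 mesenchymal-like markers (VIM, CDH2 and FN1), none was a DEG in limma, none had an unadjusted p below 0.05 there, and none was a DEG in limma-voom on the recovered reads, and their sums of 947 to 1256 and 617 to 1355 RPKM overlapped.

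The epithelial sum is carried by keratins (KRT7, KRT8, KRT18 and KRT19). It was lower in the libraries with lower PPL and PKP2 and higher DSP, and its part in these results was not tested. EPCAM, a marker of the same list, was at 0.66 ± 0.30 RPKM in shRNA-NC and 1.5 ± 0.91 RPKM in shRNA-UBC9, with overlapping groups, and did not pass the test (limma, adjusted p = 0.0984). In bulk RNA, fewer cells of a type and less RNA per cell cannot be told apart. Of 4 leukocyte markers, PTPRC was at 0.102 RPKM or less, and the list summed to 0.526 to 0.876 and 0.752 to 0.954 RPKM. CD14, the highest of the 4, was at 0.657, 0.260 and 0.642 RPKM in shRNA-NC and at 0.706, 0.692 and 0.752 RPKM in shRNA-UBC9. Its groups did not overlap, and it did not pass the test (log2 fold change 0.47, limma, adjusted p = 0.250). Of 3 endothelial markers, PECAM1 and VWF were at 0.0707 RPKM or less, while CDH5 fell from 2.87 ± 0.287 to 0.619 ± 0.390 RPKM (log2 fold change -2.20, limma, adjusted p = 0.00288). In shRNA-UBC9 replicate 1, CDH5 was at 0.241 RPKM, so it passed the filter of 0.5 RPKM only with its shRNA-NC libraries. HBB, the erythroid marker, was at 0, 0.637 and 0.877 RPKM in shRNA-NC and at 0.776, 0.794 and 0 RPKM in shRNA-UBC9. PTPRC and CD3E were likewise at 0 RPKM only in shRNA-NC replicate 1 and shRNA-UBC9 replicate 3, and PECAM1 was lowest there. CD14 and VWF did not share this pattern, which crosses the groups and whose source was not tested. Of 4 keratinocyte differentiation markers, KRT1 and LOR were at 0 RPKM and KRT10 was at 12.2 ± 1.44 and 14.1 ± 1.41 RPKM. The sums of these 4 were 10.9 to 13.7 and 12.5 to 15.1 RPKM.

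Genes that overlap these loci in GENCODE release 44 could share reads if strand was not used in counting, which is not stated. DSG2-AS1, which overlaps exons of DSG2 on the other strand, was at 0.0561 RPKM or less, and SEC14L5, which overlaps PPL without sharing exons, at 0.00892 RPKM or less. DSP-AS1, which overlaps exons of DSP, was not analysed here, so the values of DSP may include its reads. A long noncoding RNA without a symbol, which shares exon sequence with PKP2 on the same strand, was not analysed here either, and strand could not separate its reads from those of PKP2.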

How the data were processed

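Polyadenylated RNA of 6 T24 samples (3 shRNA-NC, 3 shRNA-UBC9, grouped by the labels) was sequenced from TruSeq libraries. Reads were mapped by the authors to hg38 in CLC Biomedical Genomics Workbench 4, and the deposited values are RPKM per gene. The annotation release, the use of strand and the treatment of reads with several matches are not given in the sources used here. Values were taken to log2(RPKM + 0.1), genes with at least 0.5 RPKM in at least 3 samples were kept, and limma 3.58.1 (R 4.3.3, eBayes with trend) was fitted over all of them with Benjamini-Hochberg adjustment. Read numbers were recovered from the RPKM steps for 99.9% of the 12428 tested genes (12417). The absolute totals assume GENCODE release 44 exon lengths, on which 2010 genes gave the same total, and a read may stand for a read pair. The rule for naming took the 10 genes, the targeted gene, every DEG and the 2 most abundant tested genes of each list, and the 5 genes most like PPL, of which some are not reported here. The 10 genes and the lists were chosen with earlier results of these data known. The fit was tested on simulated data. Alternatives were other pseudocounts, filters, scalings, variance models and thresholds, a replicate block, leaving out each library and, added after seeing the data, limma-voom on the recovered reads. Python 3.11.15 was used for the rest.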

Additional observations from a re-analysis of the deposited data

How the results depend on the processing

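Each log2 fold change of the 7 tested genes kept its direction under every alternative in which it could be fitted. PPL remained a DEG in all of these, DSP lost the call in 4 of 15 and PKP2 in 2 of 14. PKP2 and PPL were not tested when at least 1 RPKM was required in every sample, which left 0 of the 10 genes down-regulated and 342 and 210 DEGs (higher and lower) over all genes. With a pseudocount of 1 RPKM there were 391 and 161 DEGs and 1 of the 10 genes was down-regulated. With no filter, 0 of the 10 were up-regulated. Without a minimum fold change, 2 of the 10 were higher and 3 lower, and 2339 and 2237 genes passed over all genes. When each library was left out, 0 to 1 of the 10 were up-regulated and 1 to 2 down-regulated. The cause of these changes was not tested beyond the smaller number of samples or genes. Limma-voom on recovered reads, added after seeing the data, gave 688 and 367 DEGs, with 1 of the 10 higher and 2 lower. Among the listed genes, PERP turned to -0.0045 under quantile normalization and -0.027 under median scaling and CTNNB1 to -0.029 and -0.032. Over the omissions of single libraries PERP ranged from -0.089 to 0.095, CTNNB1 from -0.12 to 0.12 and EVPL from -0.016 to 0.25.

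Whether the replicate numbers pair the samples is not stated. Correlations of deviations from the group means cannot settle it, because the 3 deviations of a group sum to 0 for each gene. Same-numbered libraries gave -0.367, 0.073 and -0.171, and the other combinations -0.318 to 0.526. The highest was between shRNA-NC replicate 1 and shRNA-UBC9 replicate 3, the libraries with HBB at 0 RPKM, and its source was not tested. With the replicate block, 642 and 332 genes were DEGs, and 1 of the 10 genes was higher and 2 were lower. Depth limits DSG3 and PKP1, at 0 to 4 reads per library, whereas DSC2 was left out by the filter on RPKM. The lowest PPL library, at 35 reads, was well above these counts but has the Poisson 95% interval of 24.4 to 48.7 reads.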
